A study of Schizosaccharomyces pombe with 6 samples.

Results

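In fission yeast (*Schizosaccharomyces pombe*), Greatwall kinase phosphorylates Endosulfine, encoded by *igo1*, and phosphorylated Endosulfine inhibits the phosphatase PP2A bound to its B55 subunit, encoded by *pab1*. The comparison described here set cells without *igo1* in which *pab1* was also turned down against wild-type (WT) cells, so that Endosulfine and the phosphatase it inhibits were both altered. The altered cells were h- *nmt41-GST-pab1-KanMx6 igo1::natMx6*: *igo1* is replaced by a resistance marker, and *pab1*, tagged with GST, is driven by *nmt41*, a weakened form of the *nmt1* promoter that thiamine shuts off. The genotype label of these cells reads *igo1* knockdown with *pab1* repression. The WT cells were h- 972, with no modification. Both strains were kept for 4 hours at 25 °C in minimal medium without nitrogen, and each gave 2 RNAseq libraries from total RNA, labelled as biological replicates. The members were taken by rule: of the 7001 genes in the table that holds these 4 libraries, the 6035 with a mean normalized count of at least 10 were compared. A normalized count is the number of reads on a gene divided by a size factor of the library. According to the labels every strain met thiamine in the growth medium and in the washes, yet *nmt1*, described below, was high in WT. Strain and exposure to thiamine cannot be told apart in this comparison. For some genes, 2 libraries of another strain, h- *igo1::kanMX6*, are set beside these and are called the libraries labelled *igo1*Δ. The genotype label of that strain reads *igo1* knockdown. It was also kept for 4 hours at 25 °C in minimal medium without nitrogen.

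Nitrogen starvation stops fission yeast growth, arrests cells in G1 and, in the absence of a partner, leads to quiescence. The transcription factor Ste11 and the meiotic regulator Mei2 are induced, amino acid and ammonium permeases are made, proteases recycle protein and ribosome production is cut back. Thiamine acts on a separate set of genes: when it is present, the genes for its synthesis and uptake are repressed, and the *nmt* (no message in thiamine) promoters used to control genes in this yeast come from that set.

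The libraries of the *pab1*-repressed strain differed far more from each other than the WT libraries did. Recovered reads summed to 18809513 and 15637817 in the *pab1*-repressed libraries and to 14791399 and 16077159 in WT. Among 5452 genes with a mean normalized count of at least 50, the log2 ratio of replicate 2 to replicate 1 had an SD of 0.90 in the *pab1*-repressed pair and 0.21 in WT. The libraries were over 2-fold apart at 976 genes (17.9%) in the *pab1*-repressed pair and at 16 genes (0.293%) in WT. On the first principal component (59.6% of the variance) replicate 2 of the *pab1*-repressed strain lay on one side, both WT libraries on the other and replicate 1 between them. The second component (38.0%) set replicate 1 apart from the other 3 libraries.

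With limma on log2(normalized count + 1) and a Benjamini-Hochberg adjusted p under 0.05, 2 genes were lower in the *pab1*-repressed libraries and 0 were higher, that is 0.0331% and 0% of the 6035 genes. At an unadjusted p under 0.05, limma gave 1108 genes in either direction. edgeR's quasi-likelihood test on the recovered reads called the same number, 0 higher and 2 lower. DESeq2 on the same reads called 195 genes higher (3.23%) and 153 lower (2.54%). For 1675 genes (27.8%) both *pab1*-repressed libraries lay above both WT libraries, and for 1699 (28.2%) both lay below. The counts given below for each list are to be read against these shares of all genes tested. Leaving out replicate 1 of the *pab1*-repressed strain gave 2034 higher and 2183 lower genes with limma, and leaving out replicate 2 gave 1758 higher and 1824 lower, since the spread is then taken from the WT pair alone and the remaining library is assumed to vary like WT. Leaving out WT replicate 1 gave 0 higher and 3 lower, and leaving out WT replicate 2 gave 2 higher and 3 lower. In bulk RNA, fewer cells that express a gene and less RNA of it per cell cannot be told apart, and this holds for every difference given here. Genes or lists picked after their values were seen are named as such. Besides those, *sod1*, *rpt3*, *fba1*, *gpd3*, *pfk1*, *rps1702*, *rpl1603*, *rpl35A02*, *bud20*, *rpf1*, *snu2*, *snu6*, *snoU14*, *snR46*, SPMIT.01, *grt1*, *alr2*, *hht2*, *hhf1*, *cmt2* and SPBC1289.14 were also chosen in that way.

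The genes of the pathway itself were read out first. *pab1* had 1929 and 1072 normalized counts in the *pab1*-repressed libraries, against 3244 and 3138 in WT. Both repressed libraries lay below both WT libraries, with a log2 fold change of -1.15 (SE 0.32, limma adjusted p = 0.226, DESeq2 adjusted p = 0.0807), so the repression named in the label was not called by these tools. Against the mean of WT the difference was -0.73 in replicate 1 and -1.57 in replicate 2, and limma called it with either one left out. *igo1*, deleted according to the label, kept its reads, with 2307 and 5035 reads in the *pab1*-repressed libraries against 1876 and 2098 in WT. The extent of the replaced stretch is not given in the sources used here, so the reads check nothing about the label. Every direction below rests on the label of these libraries. Of the 13 genes listed for Greatwall, Endosulfine and PP2A, 0 were called by limma, edgeR or DESeq2 and 3 had an unadjusted limma p under 0.05. Of the 13, 1 lay higher and 4 lower without overlap, shares of 7.69% and 30.8% against 27.8% and 28.2% of all genes tested. The list median was -0.13, against -0.01 for all genes tested. *paa1*, the scaffold subunit of PP2A, had 3887 and 2608 normalized counts in the *pab1*-repressed libraries and 5494 and 5314 in WT. The Greatwall kinase gene *ppk18* had 7338 and 5247 in the *pab1*-repressed libraries against 6424 and 6556 in WT, and its relative *cek1* had 4844 and 3414 against 3967 and 4224. For both kinases the groups overlapped. The catalytic subunit gene *ppa2* had 1729 and 2206 in the *pab1*-repressed libraries against 2459 and 2336 in WT, whereas *par1*, for a B56 subunit, had 2011 and 2384 against 2001 and 2109.

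The labelled mating type was checked on its marker genes, and genes known to be induced by nitrogen starvation were read out. Of 10 M-cell genes, 8 had enough reads and all 8 were expressed in every library, from 234 normalized counts for *sxa2* in replicate 1 of the *pab1*-repressed strain to 12367 for *mam3* in WT. The others, *mat1-Mc* and *mat1-Mi* of the mating-type locus, were nearly without reads. *mat1-Mc* had 7 and 13 reads in the *pab1*-repressed libraries against 1 and 0 in WT, and *mat1-Mi* had 1 and 9 against 3 and 1. The 5 genes of the opposite mating type (P) were not at 0 in any group: *map1* had 297 and 317 normalized counts in the *pab1*-repressed libraries against 272 and 283 in WT, and *map2* had 89.1 and 59.7 against 45.5 and 31.1. Others on the P list were higher: *map4* had 2201 and 1637 against 1962 and 1810, and *sxa1* had 11093 and 6071 against 8501 and 8469. The P genes were thus not uniformly low, and levels alone did not set the 2 lists apart. The median log2 fold change of the 5 P genes was 0.15. The starvation gene *isp7* had 97212 and 116654 normalized counts in the *pab1*-repressed libraries against 62894 and 68200 in WT, and the ammonium transporter gene *amt1* had 60859 and 94268 against 44571 and 46363. The starvation gene *isp6* went the other way, with 71692 and 124504 against 251369 and 238384. For *isp5* the groups overlapped, and *ste11* and *mei2* lay higher, as given below. No unstarved library was analysed here, so these levels do not check the starved state.

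Genes repressed by thiamine formed the clearest difference, and the only calls of limma and edgeR were among them. *nmt1*, which makes the pyrimidine part of thiamine, had 55.5 and 48.7 normalized counts in the *pab1*-repressed libraries, against 188648 and 204913 in WT. It fell by 11.86 on the log2 scale (SE 0.15, limma adjusted p = 0.000821), and both *pab1*-repressed libraries agreed closely. *thi201*, a phosphomethylpyrimidine kinase of the same pathway, had 460 and 473 normalized counts in the *pab1*-repressed libraries against 7097 and 7223 in WT, and fell by 3.94 (SE 0.13, limma adjusted p = 0.0197). *thi2*, which makes the thiazole part, had 816 and 1375 against 83302 and 71628, a log2 fold change of -6.19 that limma did not call (SE 0.31, adjusted p = 0.0709) and DESeq2 did (adjusted p = 3.46e-58). *thi4*, which joins both parts, had 565 and 1056 in the *pab1*-repressed libraries against 4738 and 4870 in WT. The uptake carriers followed: *thi9*, the thiamine transporter, had 1252 and 1538 against 8750 and 9422, and *bsu1*, a vitamin B6 carrier, had 1227 and 759 against 7012 and 6442. The thiamine-repressible acid phosphatase gene *pho4* had 749 and 1300 against 9834 and 10080. These 4 were called lower by DESeq2 only.

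The transcription factors of the set and the last enzyme of the pathway differed less. *thi1*, a transcription factor, had 1310 and 1071 normalized counts in the *pab1*-repressed libraries against 1533 and 1537 in WT, and *tnr3*, which makes thiamine diphosphate, had 1555 and 1473 against 1928 and 1993. Neither was called, with log2 fold changes of -0.37 each. *thi5*, the other transcription factor, had 1283 and 1316 against 2299 and 2373 and was called lower by DESeq2 (adjusted p = 0.0217). All 10 listed thiamine genes lay lower in both *pab1*-repressed libraries than in both WT libraries, and DESeq2 called 8 of the 10 lower. Their median log2 fold change was -2.75. Taken against the mean of WT, it was -2.97 in replicate 1 and -2.75 in replicate 2. In the libraries labelled *igo1*Δ (h- *igo1::kanMX6*, 2 libraries), scaled together with the other 4 by TMM, *nmt1* had 159496 and 235928 reads, against 180734 and 197029 in WT, and the median of the 10 genes was 0.29 above WT.

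**Figure D1:**
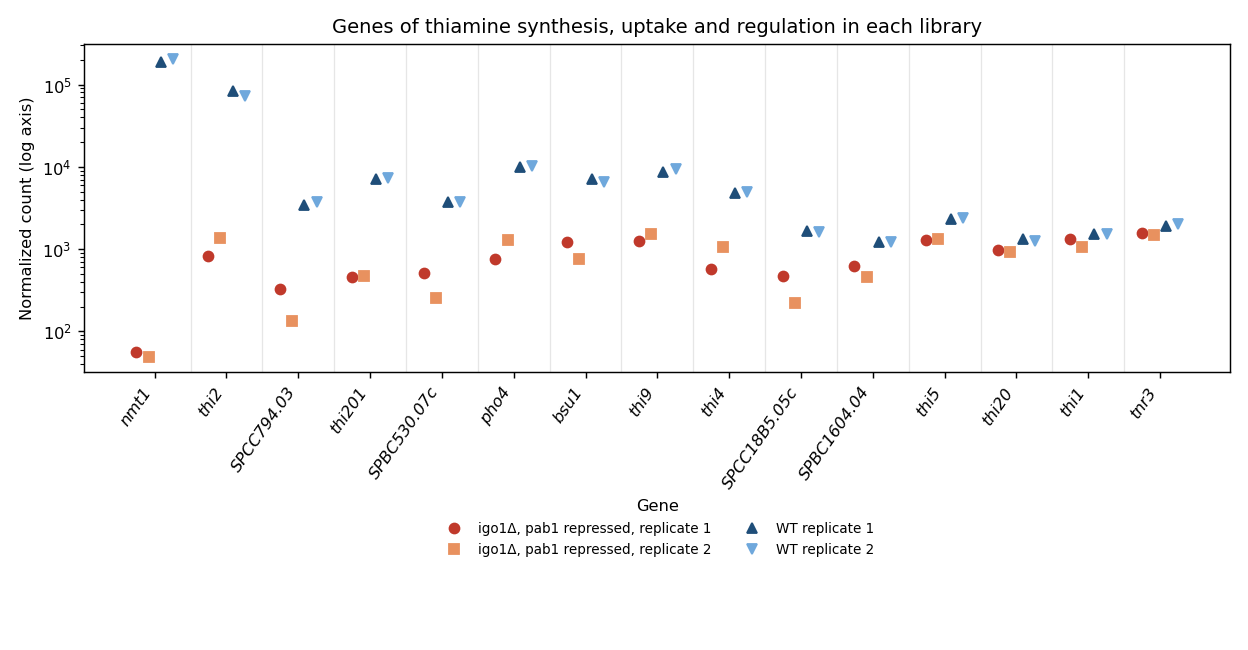
Normalized counts (log axis) of 15 thiamine genes in each library, with the *pab1*-repressed libraries as circles and squares and the WT libraries as triangles. For each gene both *pab1*-repressed libraries lie below both WT libraries, by the widest margin for *nmt1* and by little for *thi20*, *thi1* and *tnr3*.

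A further 5 genes annotated to thiamine in the reference, picked after their values were seen, lay lower as well, and DESeq2 called 4 of them lower. SPCC794.03, annotated as a thiamine transporter, had 327 and 133 normalized counts in the *pab1*-repressed libraries against 3457 and 3774 in WT. SPBC530.07c, of the TENA/THI family, had 515 and 255 against 3710 and 3748, and SPCC18B5.05c, annotated as a phosphomethylpyrimidine kinase, had 470 and 222 against 1666 and 1613. SPBC1604.04, a carrier for thiamine pyrophosphate, had 622 and 454 against 1226 and 1203. *thi20*, annotated as a phosphomethylpyrimidine kinase, had 967 and 910 in the *pab1*-repressed libraries against 1313 and 1239 in WT and was not called by DESeq2 (adjusted p = 0.402).

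The plot of both *pab1*-repressed libraries against WT shows how these genes stand to the others. On the diagonal both libraries differ from WT by the same amount. The log2 ratio of replicate 2 to replicate 1 in the *pab1*-repressed pair was -0.18 for *nmt1* and 0.04 for *thi201*, and over the 10 listed thiamine genes it ran from -0.69 for *bsu1* to 0.90 for *thi4*, with a median of 0.04. All 5 further thiamine genes were lower in replicate 2 than in replicate 1, with a median of -1.01. The median was -2.07 for ribosomal protein genes and 2.58 for cell separation genes.

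**Figure D2:**
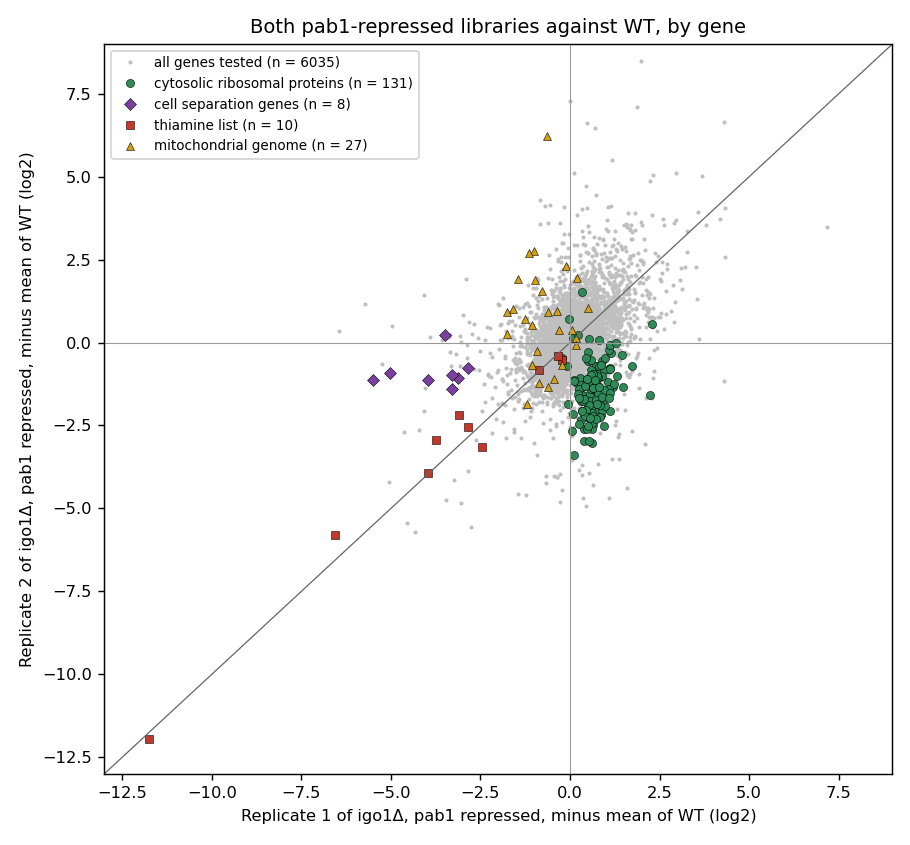
Difference from the mean of the 2 WT libraries (log2) for each of the 6035 genes tested, replicate 1 of the *pab1*-repressed strain on the x axis and replicate 2 on the y axis, with the diagonal drawn. Most ribosomal protein genes sit right of 0 on the x axis and below 0 on the y axis, and *nmt1* is the point at the lower left.

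Of the 348 genes called by DESeq2, 271 had a mean of at least 50 and *pab1*-repressed libraries within 2-fold of each other, 133 of them higher and 138 lower than WT. Only 976 (17.9%) of all 5452 genes with such a mean were over 2-fold apart in that pair, so a close pair was usual. The following were chosen among the 271 after their values were seen. SPCC162.03, annotated as a dehydrogenase, had 320 and 257 normalized counts in the *pab1*-repressed libraries against 1991 and 1947 in WT, a log2 fold change of -2.78 (SE 0.18, DESeq2 adjusted p = 5.46e-18). SPCC162.02c, annotated as an AMP-binding dehydrogenase with a neighbouring systematic name, had 1182 and 1330 against 4790 and 4750. *snz1*, an enzyme of pyridoxal phosphate (vitamin B6) synthesis, had 1407 and 1659 against 4681 and 4635. The aldo-keto reductase gene *yak3* had 3248 and 2731 in the *pab1*-repressed libraries against 13070 and 13986 in WT. *obr1*, a quinone reductase, had 1795 and 1327 against 5276 and 5349, and the flavoprotein gene *aif1* had 3163 and 2938 against 9146 and 9085. *osr2*, annotated as a potassium channel subunit, had 2703 and 4042 against 14156 and 14005. None of these 7 was called by limma, whose adjusted p ran from 0.102 to 0.141.

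Several of the lower genes handle oxidants or protect the cell under stress. Of the 17 genes listed for the Sty1-Atf1 stress pathway, 9 lay lower and 2 higher without overlap. These were 52.9% and 11.8% of the list, against 28.2% and 27.8% of all genes tested. DESeq2 called 5 of the 17 lower and 0 higher, where it called 2.54% and 3.23% of all genes, and the list median was -0.35. *gpx1*, glutathione peroxidase, had 2399 and 2191 normalized counts in the *pab1*-repressed libraries against 4978 and 4870 in WT (DESeq2 adjusted p = 0.000764). Catalase, *ctt1*, had 6497 and 6390 against 11486 and 10706, and *tps1*, which makes the protectant trehalose, had 9194 and 9633 against 16387 and 15993. The peroxiredoxin gene *tpx1* had 9877 and 4969 in the *pab1*-repressed libraries against 21576 and 20262 in WT. *rds1* had 4735 and 3608 against 11040 and 9144. The superoxide dismutase gene *sod1* had 7435 and 9156 against 9792 and 9714 and was not called. *hsp104*, a disaggregating chaperone, had 3481 and 3001 against 6239 and 5790 (DESeq2 adjusted p = 0.0194) and was the only one of 13 chaperone genes that DESeq2 called. Among 44 genes with proteasome in their annotation, a class picked after values were seen, 31 lay lower and 3 higher without overlap. These were 70.5% and 6.82% of the class. DESeq2 called 5 of the 44 lower and 0 higher, and the class median was -0.40. The proteasome subunit gene *rpt3* had 1860 and 1732 in the *pab1*-repressed libraries against 3789 and 3785 in WT.

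**Figure D3:**
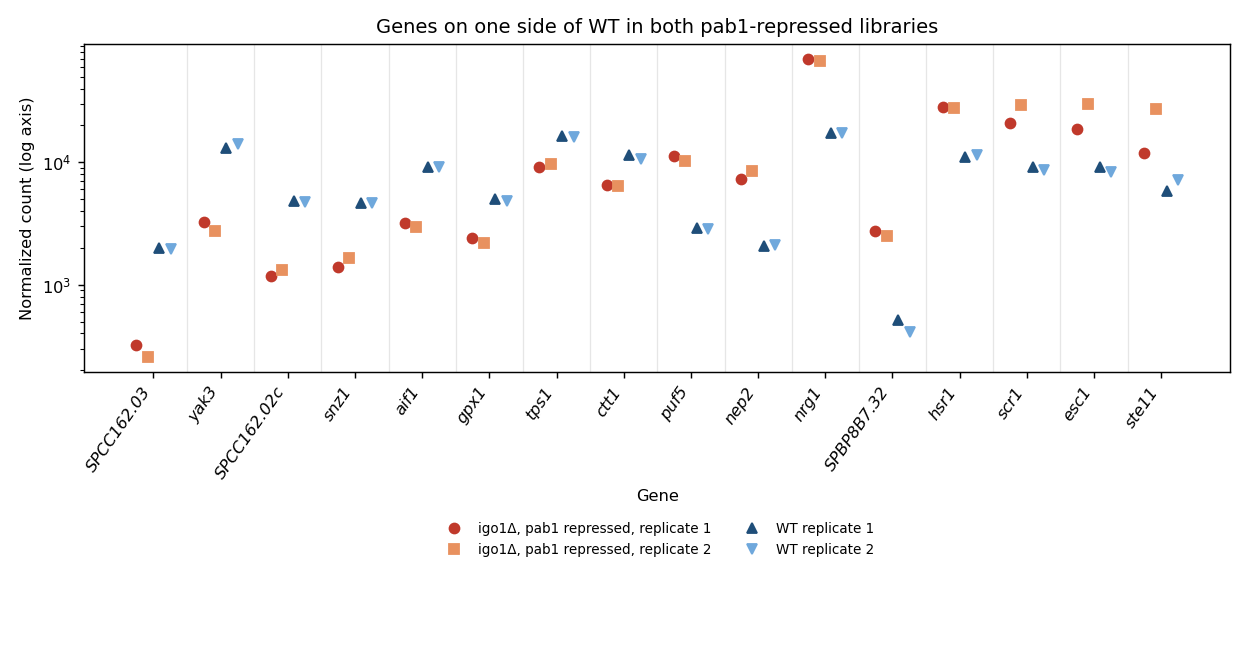
Normalized counts (log axis) of 16 genes in each library, chosen after their values were seen among those on the same side of WT in both *pab1*-repressed libraries. The first 8 genes lie below both WT libraries and the last 8 above them, and *ste11* has the widest gap between the *pab1*-repressed libraries.

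Genes of glycolysis lay lower, and further so in replicate 2. Of 15 listed genes, 12 lay lower and 0 higher without overlap, 80% and 0% against 28.2% and 27.8% of all genes tested. The median log2 fold change was -1.07. The median against the mean of WT was -0.39 in replicate 1 and -1.42 in replicate 2. *adh1*, alcohol dehydrogenase, had 93763 and 69488 normalized counts in the *pab1*-repressed libraries against 193401 and 177972 in WT (DESeq2 adjusted p = 0.00328). Phosphoglycerate kinase, *pgk1*, had 38832 and 20916 against 78019 and 71707 (DESeq2 adjusted p = 0.0221), and these were the only members DESeq2 called. Other members differed widely between the *pab1*-repressed libraries: *tdh1*, glyceraldehyde-3-phosphate dehydrogenase, had 181668 and 57000 against 330883 and 284364, and *fba1*, the aldolase, had 100805 and 30194 against 161726 and 137219. *gpd3*, a second gene for glyceraldehyde-3-phosphate dehydrogenase, had 88980 and 21107 in the *pab1*-repressed libraries against 49419 and 41531 in WT, so that replicate 1 lay above WT and replicate 2 below. *pfk1*, phosphofructokinase, had 81362 and 70409 against 107468 and 105297. These 15 genes took 6.60% and 2.80% of the reads in the *pab1*-repressed libraries and 8.84% and 8.01% in WT.

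Among genes of sexual differentiation, the regulators *ste11* and *mei2* stood above WT, while 4 of 8 M-cell genes stood below it. *ste11*, the master transcription factor, had 11997 and 27044 normalized counts in the *pab1*-repressed libraries against 5882 and 7181 in WT, a log2 fold change of 1.47 (SE 0.45, DESeq2 adjusted p = 0.0183). *mei2*, the RNA-binding switch of meiosis, had 45974 and 57957 against 32436 and 32694 and was not called. *ste7* had 15008 and 18218 against 9325 and 9159 (DESeq2 adjusted p = 0.0297), whereas *byr2*, the first kinase of the pheromone cascade, had 774 and 889 in the *pab1*-repressed libraries against 1530 and 1448 in WT and was called lower (DESeq2 adjusted p = 0.0432). Over the 14 tested genes of the pheromone response and *ste11* list, 5 lay higher and 5 lower without overlap, 35.7% each, and the median was 0.07. Of the 8 tested M-cell genes, 4 lay lower and 1 higher, 50% and 12.5% against 28.2% and 27.8% of all genes tested. *mam3*, a surface adhesion protein for mating, had 3228 and 5609 against 12367 and 11915 (DESeq2 adjusted p = 0.00477). The M-factor gene *mfm1* had 6373 and 4495 in the *pab1*-repressed libraries against 9477 and 7593 in WT, and *mfm3* had 4419 and 1618 against 1457 and 1243. For *mfm2*, also an M-factor gene, the groups overlapped, with 1215 and 3148 against 2730 and 2842. Genes for the same pheromone thus did not stand on one side of WT, and DESeq2 called none of them. In the libraries labelled *igo1*Δ, TMM-scaled reads were 1408 and 1611 for *ste11*, 1304 and 1020 for *mei2* and 8.71 and 9.31 for *mfm1*. In WT on that scale they were 5635 and 6904 for *ste11*, 31075 and 31436 for *mei2* and 9079 and 7301 for *mfm1*.

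Genes that take up and assimilate nitrogen did not stand on one side of WT. Of 15 listed, 4 lay higher and 3 lower without overlap, shares of 26.7% and 20.0% against 27.8% and 28.2% of all genes tested, and the median log2 fold change was 0.02. DESeq2 called 1 higher and 2 lower, where it called 3.23% of all genes tested higher and 2.54% lower. *per1*, an amino acid permease gene, had 34681 and 51667 normalized counts in the *pab1*-repressed libraries against 19085 and 22164 in WT and was called higher (DESeq2 adjusted p = 0.0291). *isp6*, a vacuolar protease that degrades protein for reuse, had 71692 and 124504 against 251369 and 238384 and was called lower (DESeq2 adjusted p = 0.014). *gdh2*, glutamate dehydrogenase, had 3566 and 3000 against 5873 and 5607 (DESeq2 adjusted p = 0.045). The permease gene *isp5* had 47702 and 107240.0 in the *pab1*-repressed libraries against 59543 and 67593 in WT, and its groups overlapped. Over the 24 genes of autophagy and vacuolar proteases, 14 (58.3%) lay lower and 3 (12.5%) higher without overlap. Their median was -0.31, with 1 call by DESeq2, *isp6*, which is on both lists. Genes of amino acid synthesis, which were a median 2.07 above WT in the libraries labelled *igo1*Δ on TMM-scaled reads, had a median of -0.29 here. Of 25, 13 (52%) lay lower and 1 (4%) higher without overlap, and DESeq2 called 2 lower. *met17* of sulfur amino acid synthesis had 197 and 166 in the *pab1*-repressed libraries against 395 and 424 in WT, and *lys12* of lysine synthesis had 882 and 799 against 1528 and 1534.

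Genes that stood higher in both *pab1*-repressed libraries, chosen after their values were seen, included regulators of transcription and RNA. *puf5*, a Pumilio RNA-binding protein, had 11277 and 10196 normalized counts in the *pab1*-repressed libraries against 2903 and 2872 in WT, a log2 fold change of 1.89 (SE 0.14, DESeq2 adjusted p = 7.91e-12). *nep2*, a protease that removes the ubiquitin-like NEDD8, had 7265 and 8558 against 2057 and 2116. The transcription factor genes *hsr1*, *scr1* and *esc1* were each called higher by DESeq2. *hsr1* had 28563 and 27570 in the *pab1*-repressed libraries against 10961 and 11498 in WT. *scr1*, the repressor of glucose-repressed genes, had 21145 and 29660 against 9098 and 8728, and *esc1* had 18734 and 30058 against 9151 and 8258. *pib2*, annotated as a glutamine sensor, had 16936 and 39590.5 against 7783 and 8504, a wider gap between the *pab1*-repressed libraries than for the others. Genes for entry of nutrients were among them: SPBPB2B2.01, named *nrg1* in the reference and annotated as an amino acid permease, had 70001 and 67781 in the *pab1*-repressed libraries against 17259 and 17224 in WT. SPCC584.13, annotated as a transporter of gamma-aminobutyric acid and polyamines, had 6759 and 8980 against 2213 and 2274. SPBP8B7.32, of unknown function, had 2738 and 2486 against 515 and 407. For the regulators and transporters named in this paragraph the limma adjusted p lay between 0.102 and 0.22.

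In the lists of transport and cell cycle genes, DESeq2 called higher *cta3*, *pho84*, *str1*, *ght3* and *puc1*. *cta3*, a P-type calcium-transporting ATPase, had 2000 and 5978 normalized counts in the *pab1*-repressed libraries against 604 and 542 in WT, with a log2 fold change of 2.59 (SE 0.58, DESeq2 adjusted p = 3.76e-05). In the libraries labelled *igo1*Δ it had 71307 and 85210.4 TMM-scaled reads, against 578 and 521 in WT. The phosphate transporter gene *pho84* had 3413 and 6184 in the *pab1*-repressed libraries against 1140 and 1618 in WT, *str1*, a siderophore-iron transporter, had 734 and 914 against 401 and 363, and *puc1*, a G1 cyclin, had 4583 and 8688 against 2617 and 2872. Over their lists, DESeq2 called 1 of 13 iron genes, 1 of 7 phosphate genes, 1 of 12 hexose genes and 1 of 10 CDK and cyclin genes. Over all genes tested it called 3.23% higher and 2.54% lower, so a single call in so short a list says little about the list. Large fold changes could rest on uneven libraries, as in a pair of genes chosen after their values were seen. *psu2*, annotated as a beta-glucosidase, had 1030 and 78.6 in the *pab1*-repressed libraries against 4.55 and 8.29 in WT, and SPBC19C7.04c, of unknown function, had 33704 and 10044 against 1609 and 1722. *psu2* met the filter through the *pab1*-repressed libraries alone.

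RNAs that are not translated were higher as a class. Of 957 tested genes with a non-coding RNA identifier, 461 lay higher and 93 lower without overlap. These were 48.2% and 9.72% of the class, against 27.8% and 28.2% of all genes tested. DESeq2 called 80 of the 957 higher and 3 lower, where it called 3.23% and 2.54% of all genes. The median log2 fold change of these RNAs was 0.56, with 0.53 in replicate 1 and 0.61 in replicate 2. They took 3.21% and 5.51% of the reads in the *pab1*-repressed libraries and 2.06% and 2.20% in WT. SPNCRNA.860 had 770 and 328 normalized counts in the *pab1*-repressed libraries against 60.3 and 74.6 in WT, and SPNCRNA.737 had 435 and 1363 against 111 and 106. The 3 called lower included SPNCRNA.1317, with 4.20 and 0.995 in the *pab1*-repressed libraries against 105 and 102 in WT, which met the filter through WT alone. These and the next named RNAs were chosen after their values were seen. Whether reads were counted by strand is not given in the sources used here, so reads of a non-coding RNA and of a gene on the other strand may not be separated. *hry1* had 47.1 and 62.7 in the *pab1*-repressed libraries against 291 and 241 in WT, and *prl108*, annotated as its antisense RNA, had 66.4 and 329 against 29.6 and 33.2.

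Among the small RNAs and proteins that build ribosomes, more genes lay above WT than below it. Small nucleolar RNAs guide the modification and cutting of ribosomal RNA. Of 27 tested, 16 lay higher and 0 lower without overlap, 59.3% and 0% against 27.8% and 28.2% of all genes tested. DESeq2 called 7 of the 27 higher and 0 lower, where it called 3.23% and 2.54% of all genes. The median was 0.95, with 1.26 in replicate 1 and 0.74 in replicate 2. All 27 stood above the mean of WT in replicate 1, and 18 above and 9 below it in replicate 2. Over the 53 annotated, small nucleolar RNAs took 0.498% and 0.172% of the reads in the *pab1*-repressed libraries and 0.222% and 0.191% in WT, so that by this share replicate 2 lay below WT. *snoU14* had 2319 and 2581 normalized counts in the *pab1*-repressed libraries against 773 and 762 in WT, a log2 fold change of 1.67 (DESeq2 adjusted p = 4.22e-08). *snR46* had 1350 and 4041 against 314 and 247. The U2 spliceosomal RNA, *snu2*, had 3177 and 2908 against 1194 and 1096, and the U6 RNA, *snu6*, had 246 and 135 against 37.5 and 20.7. A class picked after values were seen held 89 protein-coding genes whose annotation names ribosome biogenesis, the nucleolus or ribosomal RNA processing. Of these, 55 (61.8%) lay higher and 5 (5.62%) lower without overlap, and the median was 0.47. DESeq2 called 4 of the 89 higher and 0 lower, where it called 3.23% of all genes tested higher, and limma and edgeR called 0, with 30 at an unadjusted limma p under 0.05. *bud20*, for a ribosome biogenesis protein, had 762 and 694 in the *pab1*-repressed libraries against 340 and 355 in WT, and *rpf1*, for a Brix domain protein, had 3069 and 2166 against 1099 and 1003. How small RNAs passed the library preparation was not tested.

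The ribosomal proteins themselves behaved in a different way, and the *pab1*-repressed libraries stood on opposite sides of WT. Of the 131 cytosolic ribosomal protein genes, 127 lay above the mean of WT in replicate 1, and 124 lay below it in replicate 2. The median against WT was 0.62 in replicate 1 and -1.40 in replicate 2, and the median gap between the replicates was -2.07, against -0.07 in WT. *rps1702* had 2471 and 218 normalized counts in the *pab1*-repressed libraries against 1724 and 1681 in WT. *rpl1701* had 1608 and 128 against 1053 and 1055, and *rpl1603* had 408 and 27.9 against 86.4 and 86.1. Together they took 2.12% and 0.546% of the reads in the *pab1*-repressed libraries and 1.33% and 1.27% in WT. Reads of paralogous pairs may be shared between copies, and how the counting split them is not given in the sources used here. Of the 131, 0 were called by limma, edgeR or DESeq2, 0 had an unadjusted limma p under 0.05, and the groups overlapped at 124 of the 131. Over all 6035 genes tested they overlapped at 2661. *rpl35A02* was among the few of the 131 without overlap, with 2403 and 2482 against 2306 and 2256.

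**Figure D4:**
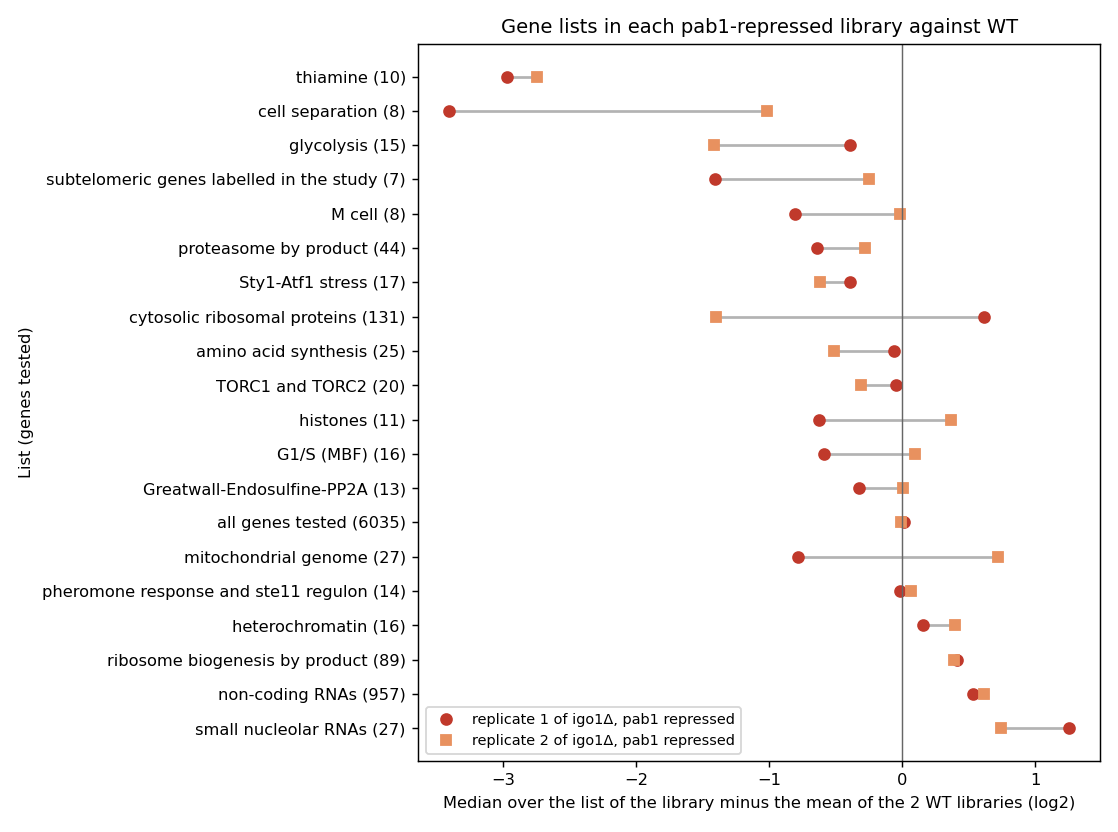
Median over each list of the difference from the mean of the 2 WT libraries (log2), with replicate 1 of the *pab1*-repressed strain as circles and replicate 2 as squares, and the genes tested in brackets. The points stand together for thiamine genes, at -2.97 and -2.75, and on opposite sides of 0 for ribosomal proteins, at 0.62 and -1.40, and for the mitochondrial genome, at -0.78 and 0.72.

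Genes that part mother and daughter cells after division were low in replicate 1 and nearer to WT in replicate 2. The list of 8 was picked after its values were seen and holds *eng1*, *agn1*, *adg1*, *adg2*, *adg3*, *cfh4*, the septin ring gene *mid2* and the chitinase gene *cts2*. *eng1*, the endoglucanase that dissolves the primary septum, had 1133 and 19247 normalized counts in the *pab1*-repressed libraries against 36653 and 36736 in WT, and *agn1*, the alpha-glucanase of the same step, had 693 and 9208 against 7628 and 8058. *adg1* had 102 and 2151 in the *pab1*-repressed libraries against 4564 and 4773 in WT. The list median against WT was -3.40 in replicate 1 and -1.01 in replicate 2, and all 8 were higher in replicate 2 than in replicate 1. Of the 8, 7 (87.5%) lay lower without overlap, the exception being *agn1*, against 28.2% of all genes tested. DESeq2 called *cts2* only, which had 3357 and 12430 in the *pab1*-repressed libraries against 34521 and 31582 in WT (adjusted p = 0.0183). In the libraries labelled *igo1*Δ, TMM-scaled reads of *eng1* were 3130 and 2876, against 35115 and 35323 in WT. The median of the 8 genes against WT was -3.01 there. Both comparisons share the WT libraries, and the values are set side by side without a test.

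**Figure D5:**
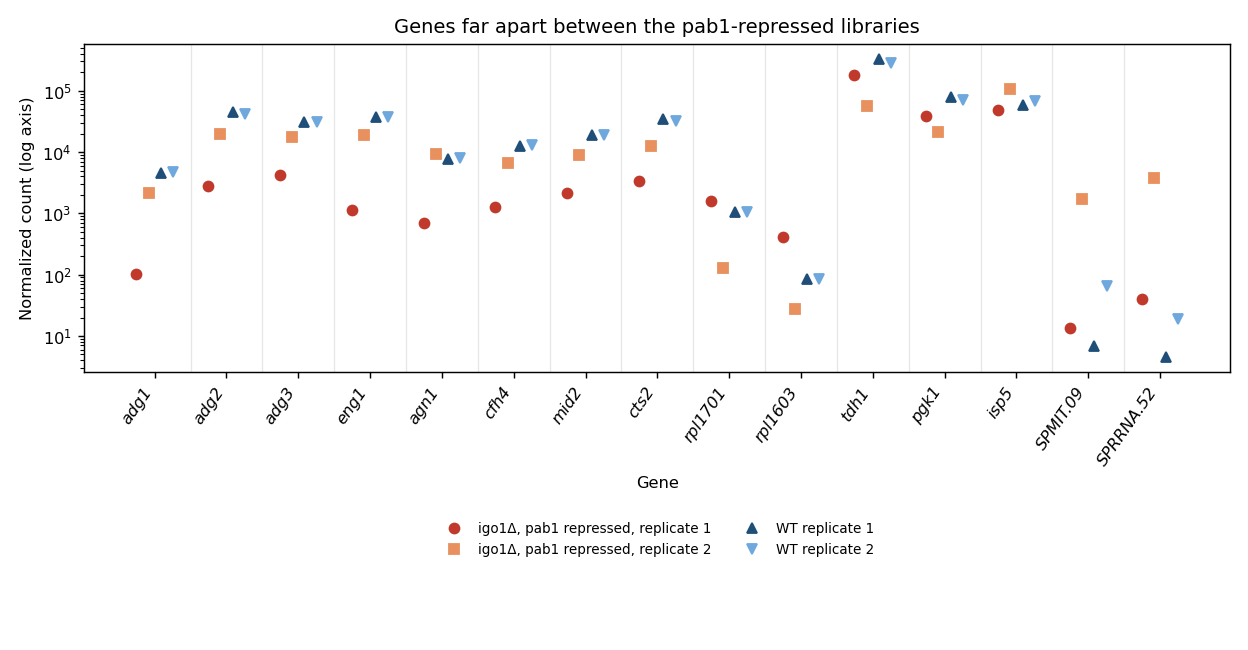
Normalized counts (log axis) of 15 genes in each library, most of them chosen because the *pab1*-repressed libraries (circles and squares) lie far apart. Cell separation genes are lower in replicate 1, the ribosomal protein genes *rpl1701* and *rpl1603* are lower in replicate 2, and the WT libraries (triangles) lie together except for SPMIT.09 and SPRRNA.52.

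By the rule that ranked genes on the gap between the *pab1*-repressed libraries, 4 of the 8 genes furthest above in replicate 2 were ribosomal RNA genes. SPRRNA.52, for 5.8S RNA, had 40.3 and 3778 normalized counts in the *pab1*-repressed libraries against 4.55 and 18.7 in WT, and SPRRNA.44, for 18S RNA, had 98.3 and 5428 against 17.1 and 207. Ribosomal RNA took 0.0300% and 0.187% of the counted reads in the *pab1*-repressed libraries and 0.00118% and 0.0105% in WT, so WT replicates differed in it as well. The mitochondrial gene SPMIT.09 had 13.4 and 1700 in the *pab1*-repressed libraries against 6.82 and 64.3 in WT. Over the 27 tested genes of the mitochondrial genome the median was -0.78 in replicate 1 and 0.72 in replicate 2 against WT. Without overlap, 2 lay higher and 6 lower. These shares of 7.41% and 22.2% were below the 27.8% and 28.2% of all genes tested. SPMIT.01, the member with the highest mean, had 140686 and 139567 against 122190.0 and 129841, close in all 4 libraries. Whether the carry-over of ribosomal RNA has a part in the gap between the replicates was not tested.

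A few genes were missing from a single library. *fah1*, for an acetamidase, had 0 and 117 reads in the *pab1*-repressed libraries against 53 and 43 in WT, and its neighbour SPBPB8B6.02c, annotated as a urea transporter, had 0 and 112 against 80 and 80. *grt1*, whose span on the opposite strand holds *fah1* in the ASM294v3 annotation, had 46 and 150 reads in the *pab1*-repressed libraries against 145 and 203 in WT. *alr2*, alanine racemase, had 0 and 44 against 29 and 27. A count of 0 allows up to 3 reads at this depth, for counting error only. Reads in the other libraries exceeded this limit at all 3 genes.

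Histone genes did not move as a group. *hht1*, for histone H3, had 2054 and 3488 normalized counts in the *pab1*-repressed libraries against 8800 and 8756 in WT, a log2 fold change of -1.71 (SE 0.30, DESeq2 adjusted p = 0.000492). *hht2*, a second gene for histone H3, had 18187 and 5041 against 11721 and 10119. *hhf1*, for histone H4, had 2190 and 18699 in the *pab1*-repressed libraries against 8620 and 8550 in WT. The median over 11 histone genes was -0.62 in replicate 1 and 0.37 in replicate 2, and DESeq2 called *hht1* only. Genes of a multigene family with near-identical copies may also share reads.

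Genes near the chromosome ends held calls in both directions. Of 102 tested genes within 100 kb of the ends of chromosomes I and II in the ASM294v3 assembly, 27 lay higher and 33 lower without overlap, shares of 26.5% and 32.4% that are near the 27.8% and 28.2% of all genes tested. DESeq2 called 11 of the 102 higher and 10 lower, where it called 3.23% and 2.54% of all genes, and the median was -0.13, with -0.49 in replicate 1 and 0.10 in replicate 2. Lower were SPBPB21E7.09, annotated as an L-asparaginase, with 2047 and 1379 normalized counts in the *pab1*-repressed libraries against 8853 and 9571 in WT, and SPAC869.01, an amidase, with 377 and 1143 against 7214 and 6930. SPAC186.03, a second L-asparaginase, had 5.04 and 9.95 against 144 and 278, and met the filter through WT alone. SPBPB10D8.02c, annotated as an arylsulfatase, had 13.4 and 54.7 in the *pab1*-repressed libraries against 352 and 369 in WT. Higher were *nrg1*, given above, and SPBPB2B2.05, a glutamine amidotransferase family gene, with 7599 and 2695 against 933 and 822. These 5 genes were named after their values were seen. Of the 15 subtelomeric genes labelled in the study, 7 had enough reads, and their median was -0.73, with 4 (57.1%) lower and 1 (14.3%) higher. SPAC186.06 had 0.840 and 0 normalized counts in the *pab1*-repressed libraries against 25.0 and 71.5 in WT, that is 1 read and 0 reads in the *pab1*-repressed libraries, and was the only one that DESeq2 called. It met the filter through WT alone, so it was tested only because of its level there, and the WT libraries were far apart. SPBC1289.14 had 13.4 and 30.8 against 75.0 and 74.6, and *cmt2* had 55.5 and 180 against 164 and 170. The study chose this list on *igo1*Δ and WT cells, and whether on the libraries used here is not given in the sources used here.

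The lists given next held no calls by limma, edgeR or DESeq2. Of the 20 genes of TORC1 and TORC2, which sense nutrients, 9 (45%) lay lower and 1 (5%) higher without overlap. Over all genes tested, 28.2% lay lower and 27.8% higher. Of the 20, 0 were called by limma, edgeR or DESeq2, 3 had an unadjusted limma p under 0.05, and the median was -0.24. Over the 16 genes of G1/S transcription the median was -0.59 in replicate 1 and 0.09 in replicate 2, with 0 called by these tools and 2 at an unadjusted limma p under 0.05. The ribonucleotide reductase gene *cdc22* of that list had 8710 and 9637 normalized counts in the *pab1*-repressed libraries against 14496 and 13732 in WT. The 16 heterochromatin genes had a median of 0.23, with 8 higher and 2 lower, the 11 shelterin and bouquet genes 0.12, with 4 higher and 0 lower, and the 14 MCM and replication origin genes -0.03, with 4 higher and 1 lower. The shares that lay higher were 50%, 36.4% and 28.6% in that order, the last of them near the 27.8% of all genes tested. DESeq2 called 0 genes of these lists, and limma gave an unadjusted p under 0.05 for 3, 2 and 0 genes in the same order. For 11 copies of the Tf2 retrotransposon, whose reads cannot be assigned to single copies with certainty, the median was 0.58 in replicate 1 and -0.70 in replicate 2.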

How the data were processed

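The authors deposited counts of reads per gene normalized with DESeq2, here called a normalized signal, for 7001 genes in 2 tables that were scaled separately. The submitters' processing notes name FastQC 0.11.8, Trimmomatic 0.38, HISAT2 2.1.0, featureCounts of Subread 1.6.3 and the build ASM294v2. Strand use in the counting is not given in the sources used here. Dividing each column by its smallest value above 0 gave whole reads for 100% of the values (tolerance 0.001), and the *pab1*-repressed libraries, held in both tables, gave identical reads.

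Genes averaging at least 10 normalized counts were tested with limma 3.58.1 (trended variance) after log2 transformation with a pseudocount of 1, with Benjamini-Hochberg adjusted p-values under 0.05. edgeR 4.0.16 (TMM scaling, quasi-likelihood test) and DESeq2 1.42.0 were run on recovered reads. Fold changes understate those of low genes. The members and lists were chosen with earlier results of these data known. Genes were named by these rules: the pathway genes, every gene called by limma, up to 12 rises and 12 falls with a mean of at least 50, groups apart and an edgeR call (only *nmt1* and *thi201* met this), the 8 genes most above and the 8 most below in replicate 2 over replicate 1 of the *pab1*-repressed pair, and in each list up to 6 members called by edgeR or DESeq2 and the member with the highest mean. Others were named after their values were seen. Replicates differed by more than sampling noise (chi-square per gene 418 in the *pab1*-repressed pair and 9.26 in WT). The labels call them biological replicates but name no separate cultures, so p-values measure the spread between these libraries.

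In simulated reads of 6035 genes, with 200 genes changed, limma called 8% of 2-fold and 86% of 4-fold changes at a dispersion of 0.09. There edgeR called 8% and 90%, and DESeq2 13% and 89%. At a dispersion of 0.01 limma and edgeR called 100% of both, and DESeq2 96% and 100%. Each simulation gave every gene the same dispersion in both groups, whereas the *pab1*-repressed pair spread far more than WT. The shares therefore do not give the power of this comparison. Gene names come from ASM294v3, to which 6852 of 7001 identifiers matched. Alternatives were pseudocounts of 0.1 and 10, other filters, tools and scalings, all 6 libraries, a replicate block and each library left out. R 4.3.3 and Python 3.11.15 were used.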

Additional observations from a re-analysis of the deposited data

How the results depend on the processing

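The 0 higher and 2 lower calls of limma were the same in number with pseudocounts of 0.1 and 10, without the filter, with a mean of at least 50, with upper-quartile or TMM scaling and with edgeR. DESeq2 called 195 genes higher and 153 lower, and edgeR fitted on all 6 libraries called 47 and 76. With the replicate number as a block, limma and edgeR each called 6 higher and 15 lower. The same-numbered deviations correlated at r = 0.107 across 6035 genes, with only 2 pairs, so the numbers are not taken as pairing the libraries. With a library left out, limma and edgeR (edgeR here and with the block was added after seeing the data) called 0 to 2101 genes higher and 3 to 2183 lower, the high ends being those without a *pab1*-repressed library. *nmt1* and *thi201* were called lower in every alternative listed here.

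Log2 fold changes turned their sign for genes whose groups overlapped, most of them with *pab1*-repressed libraries on both sides of WT. With edgeR, DESeq2 and edgeR on all 6 libraries they came to 0.28, 0.29 and 0.30 for *hhf1*, 0.27, 0.28 and 0.27 for *gpd3*, 0.0823, 0.0946 and 0.0859 for *hht2*, 0.14, 0.16 and 0.15 for *fah1*, and 0.0048, 0.018 and 0.013 for *cek1*. With upper-quartile scaling they came to 0.0105 for *gpd3*, 0.00986 for *ppk18* and 0.0650 for *cek1*. With a library left out, the ranges given next span limma and edgeR. They were -9.46 to 0.37 for SPBPB8B6.02c, -8.73 to 1.17 for *fah1* and -7.95 to 0.53 for *alr2*. These low ends came from edgeR, and limma gave -6.46, -5.72 and -4.97 in that order. Log2 fold changes ranged from -1.44 to 6.94 for SPMIT.09, -0.23 to 7.33 for SPRRNA.44, -3.51 to 0.24 for *agn1* and -1.59 to 0.12 for *cmt2*. Those of *gpd3* ranged from -1.10 to 0.97, of *hhf1* from -1.98 to 1.13, of *hht2* from -1.11 to 0.74, of *rpl1603* from -1.62 to 2.24, of *rpl1701* from -3.03 to 0.61 and of *rps1702* from -2.96 to 0.54. The ranges were -0.16 to 1.23 for *igo1*, -0.42 to 0.76 for *isp5*, -0.037 to 0.22 for *par1*, -0.31 to 0.18 for *ppk18* and -0.26 to 0.24 for *cek1*. For SPRRNA.44, SPMIT.09 and *par1*, replicate 1 of the *pab1*-repressed strain lay between the WT libraries. With limma SPRRNA.44 kept its sign, at 0.70 to 6.47. The cause of the turned signs was not tested.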
